A study of Danio rerio with 4 samples.

Results

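The genes described here are the proteasome genes of the zebrafish trunk and the nfe2l1 paralogues, in flt1 mutants and WT at 3 days post-fertilisation (dpf). They are all genes whose symbol in the deposited gene list begins with psm, then a letter from a to g, then a digit, which gave 57 genes, together with nfe2l1a and nfe2l1b, so 59 of the 25432 genes listed. nfe2l1a was picked for its rise in flt1 mutant trunks in these same libraries, so its values are a description without a test. The question was whether the proteasome genes moved with it, and in which cells.

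There were 2 libraries of flt1 mutant trunks and 2 of WT trunks, each a suspension of cells from dissected trunks whose heads had been removed, read by droplet-based single cell RNA sequencing of transcript 3′ ends. The flt1 mutants carried the ka604 allele, a small deletion in an early exon with a premature stop codon, so that neither the soluble nor the membrane form of this Vegf receptor and decoy is made. The labels give no transgene, number of embryos or clutch. The methods describe the dissociation by reference to a protocol for pooled embryos of the Tg(kdrl:EGFP) line, and whether pool and line hold for the trunks is not stated, so the spread between libraries may be partly technical. A 3′ read does not see the deletion, and flt1 UMIs (unique molecular identifiers, each counting 1 captured transcript) numbered 55 and 68 in the flt1 mutant libraries, against 34 and 105 in the WT libraries, which checks neither label.

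Proteasomes are barrels that cut proteins tagged with ubiquitin. The barrel is built of alpha and beta rings, the beta ring carries the cutting sites, and a cap of ATPases and other subunits binds, unfolds and feeds in the substrate. In mammalian cells Nfe2l1 is a transcription factor of the cap n collar family that is held at the endoplasmic reticulum, extracted by Vcp, trimmed by Ngly1 and cut by Ddi2 before it enters the nucleus, and it is known there for raising all proteasome subunit genes together when proteasomes are blocked.

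Of the 57 psm genes, 9 code for alpha ring subunits, 7 for the constitutive beta ring, 7 for beta subunits of the immune or thymus type, 7 for ATPases of the cap, 13 for its other subunits, 6 for activators or the inhibitor psmf1, and 6 for assembly chaperones. The other 2, psmc3ip and psme3ip1, match by symbol but code for partner proteins and not subunits. Near-copies written in capitals (PSMA2, PSMD2 and PSMD4) fall outside the rule, and reads of psma2, psmd2, psmd4a and psmd4b may be shared out between them and these copies.

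After the limits on genes and mitochondrial UMIs of the study, 19611 of 32486 barcodes were retained, from 3042 to 6688 a library, with 35781471 to 61822943 UMIs. They formed 29 clusters, of which 21 took a class name from marker genes, and 17 classes had at least 20 cells in each library and were tested. Photoreceptor-like cells, pineal or retinal by their markers, were too few to test. They numbered 1 and 10 in the flt1 mutant libraries, against 47 and 43 in the WT libraries. The part of this difference in the whole-trunk values was not tested. Median depth was uneven, at 5037.5 and 779 UMIs a cell in the flt1 mutant libraries, against 8033 and 3760 in the WT libraries. Pairs of libraries shared 10 to 25 barcodes, at most 0.275% of the smaller library. The 7322 retained cells of no named class had median depths of 570 to 786 UMIs.

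nfe2l1a was a low-abundance transcript that was higher in both flt1 mutant libraries. It had 127 and 91 UMIs in the flt1 mutant trunks, against 12 and 20 UMIs in the WT trunks, or 2.82 and 2.29 UPM (UMIs in every 1000000 UMIs of the cells summed) in the flt1 mutants against 0.335 and 0.324 UPM in WT. The fitted log2 fold of flt1 mutant over WT was 2.99 (SE 0.29, n = 2 libraries each), about 7.93-fold. In a sum over the whole trunk, more cells of a kind and more RNA per cell cannot be told apart, so the classes are given next.

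The skin held most of it in the flt1 mutants. In periderm-like and basal epidermis-like cells, the outer and the inner layer of the larval epidermis, lay 171 of its 218 UMIs in the flt1 mutants and 16 of its 32 UMIs in WT, together 187 of 250 (74.8%). In basal epidermis-like cells nfe2l1a had 57 and 37 UMIs in the flt1 mutant libraries, against 1 and 7 in the WT libraries, a log2 fold of 4.04 (SE 0.42). In periderm-like cells it had 43 and 34 UMIs in the flt1 mutant libraries, against 5 and 3 in the WT libraries, a log2 fold of 3.16 (SE 0.47). These 2 classes were the only tested classes where nfe2l1a passed the count filter.

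In basal epidermis-like cells its level was 24.4 and 23.97 UPM in the flt1 mutants, against 0.53 and 1.76 UPM in WT, so the libraries of the genotypes did not overlap. Its level in periderm-like cells was 3.81 and 3.58 UPM in the flt1 mutants, against 0.685 and 0.263 in WT. Fast muscle-like cells had 9 and 9 UMIs of nfe2l1a in the flt1 mutants and 0 and 0 in WT. No UMI was found in erythroid-like, neuron-like, ependymal radial glia-like or xanthophore-like cells of any library, which allows up to 0.107, 0.69, 0.746 and 4.44 UPM over the 4 libraries together, by counting error only. Each other tested class held at most 11 UMIs.

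**Figure D1:**
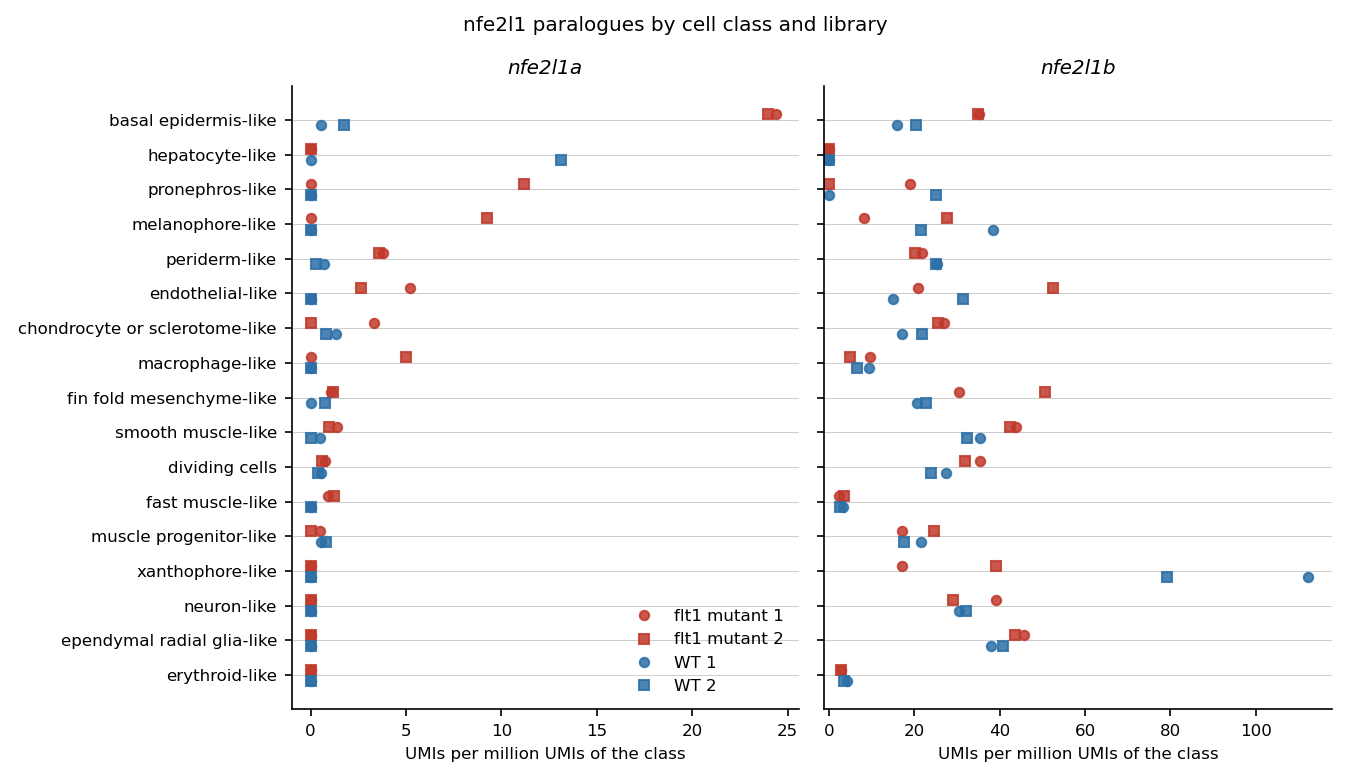
Level of nfe2l1a (left) and nfe2l1b (right) in UPM (x axis) in the 17 tested classes (y axis, ordered by mean nfe2l1a level); red points are flt1 mutant libraries and blue points WT libraries, circles replicate 1 and squares replicate 2. Both flt1 mutant points of nfe2l1a lie at 24.4 and 23.97 UPM in basal epidermis-like cells and WT points at or under 1.76, while single points in shallow classes such as hepatocyte-like and pronephros-like cells stand for 1 UMI.

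nfe2l1b, the other paralogue, was more abundant and spread over most classes. It had 772 and 727 UMIs in the flt1 mutant trunks, against 638 and 925 in the WT trunks. Its log2 fold was 0.16 (SE 0.09), which was not called by edgeR's quasi-likelihood test over all genes (adjusted p = 0.472). A gene is said to be called here, and to have risen or fallen, when the adjusted p was under 0.05. Epidermal classes held 37.8% of the 3062 UMIs of nfe2l1b, a share that also depends on how many UMIs of all genes they hold. Its level in the whole trunk was 17.15 and 18.29 UPM in the flt1 mutants and 17.83 and 14.96 UPM in WT. Basal epidermis-like cells had 35.1 and 34.98 UPM in the flt1 mutants, against 15.9 and 20.4 UPM in WT, a log2 fold of 0.84 (SE 0.20) that did not pass over all genes (adjusted p = 0.122). In periderm-like cells it stood at 21.8 and 20.2 UPM in the flt1 mutants and at 25.3 and 25.1 UPM in WT, a log2 fold of -0.15 (SE 0.12, adjusted p = 0.548).

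The genes whose level over the 17 classes was most like that of nfe2l1a were myh9a (r = 0.81), abi3b (r = 0.81), tmem238a (r = 0.81), si:ch211-117l17.6 (r = 0.81) and cxl34b.11 (r = 0.80), by Pearson correlation of log2(UPM + 1) of class means. The classes share 4 libraries, so these values are descriptive. Basal epidermis-like cells had the highest level named here for each, for example 1336 UPM for myh9a, a non-muscle myosin, against a median of 8.35 over the classes. In periderm-like cells myh9a and tmem238a had 167 and 85.3 UPM, but abi3b, si:ch211-117l17.6 and cxl34b.11 had 0.317, 0.0441 and 1.12 UPM. The nfe2l1a means in hepatocyte-like and pronephros-like cells, 3.28 and 2.79 UPM, rest on 1 UMI each.

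In the whole trunk, no psm gene was called, and those nearest to it were higher in the flt1 mutants. Of the 57 psm genes, 53 passed the count filter and were tested, and psmb11a, psmb11b, psmb13a and psmb8a had too few UMIs. edgeR called 0 of the 53, where it called 84 of 18036 genes (0.466%) over the trunk. DESeq2 called psme1 and psmb12, where it called 3.47% of all genes, a share near that of the psm genes. At an unadjusted p under 0.05, 15 psm genes were higher and 0 lower, while 8.23% of all genes were higher at that level. Among the 15 was psmb12, which passed the count filter through the flt1 mutant libraries alone. The median log2 fold of the 53 was 0.22, beside -0.01 over all genes tested, and 75.5% of them were above 0, beside 48.2% of all genes.

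psme1, a subunit of the interferon-inducible activator ring in mammals, had 12.2 and 10.4 CPM (the same measure with the total scaled by the fit) in the flt1 mutant trunks, against 5.61 and 5.59 CPM in the WT trunks. Its log2 fold of 1.01 (SE 0.13) had an adjusted p of 0.0622. Its partner psme2 stood at 7.17 and 7.50 CPM in the flt1 mutants and 6.03 and 5.77 CPM in WT (log2 fold 0.31, SE 0.13, adjusted p = 0.328). psme1 was the sole member on the chromosome of flt1 in the RefSeq table of assembly GRCz12tu, with 127 protein-coding genes between them. The log2 fold was larger for psme1 than for psme2, and edgeR called neither of them in the whole trunk.

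psmb12 is a beta subunit gene that lies in the same table between psmb8a and psmb9a, with the peptide transporter gene tap2a beyond psmb9a. It had 51 and 28 UMIs in the flt1 mutant trunks, against 2 and 5 UMIs in the WT trunks, a log2 fold of 3.68 (SE 0.53, adjusted p = 0.0665). psmb12 passed the count filter through the flt1 mutant libraries alone, so this p is no independent support. Its neighbour psmb9a, the counterpart of a mammalian immunoproteasome subunit, had 23 and 20 UMIs in the flt1 mutants, against 16 and 9 in WT (log2 fold 0.94, SE 0.51, adjusted p = 0.447). psmb10, another immune-type subunit gene, overlapped between genotypes at 7.01 and 11.1 CPM in the flt1 mutants and 10.9 and 6.68 CPM in WT.

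Among the alpha ring, the constitutive beta ring and the cap groups, the cap ATPases had the highest median, 0.32 over 7 genes, and psmc1b led them. psmc1b had 55.5 and 55.4 CPM in the flt1 mutant trunks, against 42.0 and 41.2 CPM in the WT trunks (log2 fold 0.41, SE 0.10, adjusted p = 0.167). psmc1a was lowest among these ATPases, at 73.9 and 73.2 CPM in the flt1 mutants and 60.6 and 63.5 CPM in WT (log2 fold 0.24, SE 0.10). psmc2 had 93.2 and 93.0 CPM in the flt1 mutants, against 69.4 and 75.7 CPM in WT (log2 fold 0.36, SE 0.11, adjusted p = 0.227). None of the 7 ATPase genes was called. psmc3 had 64.9 and 64.2 CPM in the flt1 mutants, against 48.9 and 52.7 CPM in WT (log2 fold 0.35). psmc6 had 94.6 and 95.9 CPM in the flt1 mutants, against 75.9 and 77.1 CPM in WT (log2 fold 0.32), and psmc5 had 104 and 104 CPM in the flt1 mutants, against 82.1 and 84.9 CPM in WT (log2 fold 0.31). The adjusted p of psmc2, psmc3, psmc5 and psmc6 lay between 0.227 and 0.254.

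The 7 constitutive beta genes lay close together. psmb1 was highest, at 237 and 241 CPM in the flt1 mutant trunks against 190 and 197 CPM in the WT trunks (log2 fold 0.31, SE 0.11), and psmb6 was lowest, at 180 and 177 CPM in the flt1 mutants against 150 and 159 CPM in WT (log2 fold 0.21, SE 0.11). None of the 7 was called.

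The alpha ring genes had a median of 0.22. psma6a was lowest, at 94.7 and 94.3 CPM in the flt1 mutant trunks and 86.4 and 95.9 CPM in the WT trunks (log2 fold 0.05, SE 0.11), which overlapped, and psma4 highest at 0.34. psma4 had 149 and 153 CPM in the flt1 mutant trunks, against 116 and 122 CPM in the WT trunks (SE 0.11, adjusted p = 0.245). Among the 13 non-ATPase cap genes the median was 0.10. psmd14, the deubiquitinase of the cap, was highest at 0.34 (SE 0.11, adjusted p = 0.247), with 86.3 and 82.9 CPM in the flt1 mutants and 64.3 and 69.5 CPM in WT, and psmd3 followed, with 125 and 123 CPM in the flt1 mutants and 97.7 and 102 CPM in WT (log2 fold 0.31). psmd11b was lowest, with 1454 and 1464 UMIs in the flt1 mutants and 1398 and 2129 UMIs in WT (log2 fold -0.04, SE 0.11), whose CPM overlapped.

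The 6 assembly chaperones had a median of -0.05. psmd5 was highest among them, at 9.11 and 8.96 CPM in the flt1 mutant trunks and 7.44 and 8.34 CPM in the WT trunks (log2 fold 0.19, SE 0.12). psmg1 was lowest, at 14.5 and 17.1 CPM in the flt1 mutants and 18.1 and 17.3 CPM in WT (log2 fold -0.16, SE 0.12). Among the activators psme4a was lowest, with overlapping libraries of 46 and 26 UMIs in the flt1 mutants and 39 and 47 UMIs in WT (log2 fold -0.05, SE 0.35). Of the pair that are not subunits, psmc3ip had 141 and 149 UMIs in the flt1 mutants and 143 and 231 in WT (log2 fold -0.13, SE 0.16), and psme3ip1 had 552 and 523 UMIs in the flt1 mutants and 536 and 911 in WT (log2 fold -0.19, SE 0.12).

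Periderm-like cells were the class where psm genes were called in number, and every call was higher in the flt1 mutants. Of the 51 psm genes that passed the filter there, 21 rose and 0 fell. psmb12, counted among the 21, passed the filter through the flt1 mutant libraries alone. In the same cells 6.04% of 10457 genes were called, and 3.15% were called higher. At an unadjusted p under 0.05, 34 psm genes were higher, psmb12 again among them, and 1 lower, where 10.9% of all genes were higher. The median log2 fold of the 51 was 0.42, or 1.34-fold, beside -0.03 over all genes, and 86.3% were above 0, beside 46.9% of all genes. In all 21 both flt1 mutant libraries lay above both WT libraries. As the 21 were called from these same libraries, this is no further support.

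**Figure D2:**
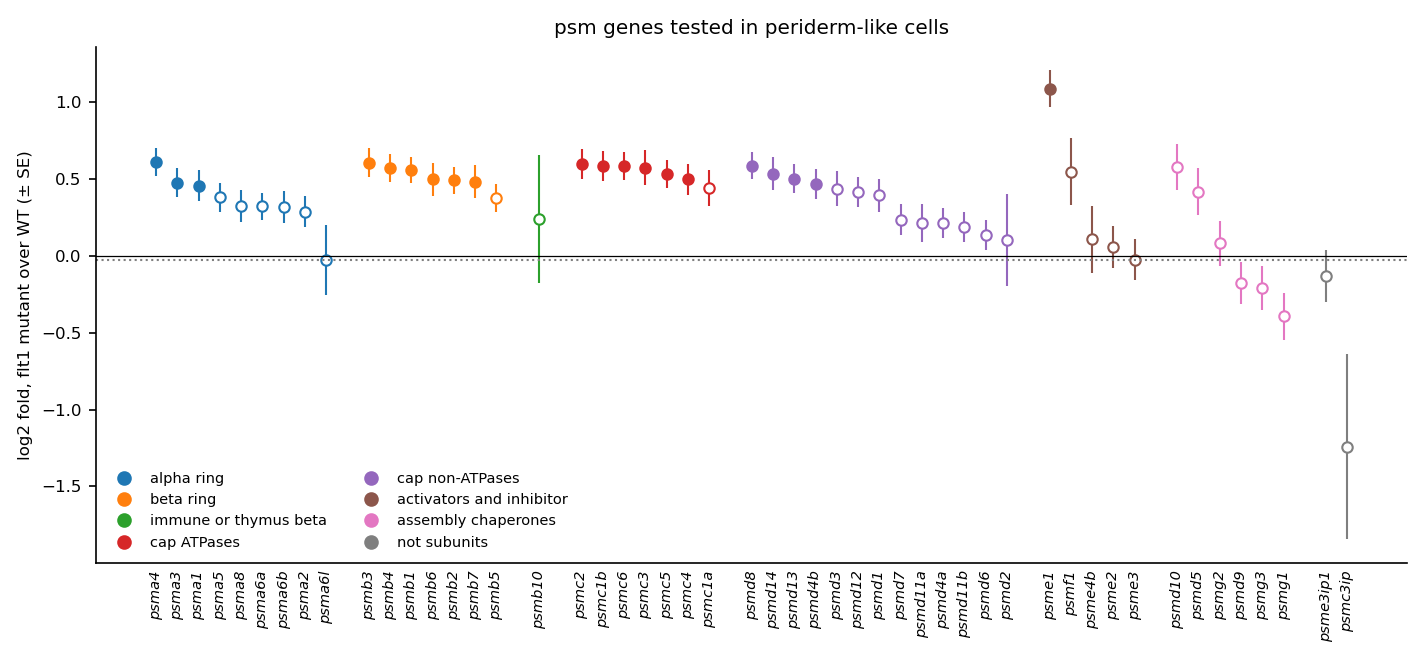
Log2 fold of flt1 mutant over WT with its SE (y axis) for 50 of the psm genes tested in periderm-like cells, grouped by role (colour); filled points were called by edgeR, open points were not, and the dotted line is the median over all genes tested, -0.03. psmb12, with no UMI in WT, is left out; psme1 stands highest at 1.09, most ring and cap genes lie between 0.1 and 0.61, and the assembly chaperones fall on both sides of 0.

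psme1 changed most among the measured subunits with reads in both genotypes. It had 375 and 306 UMIs in periderm-like cells of the flt1 mutants, against 127 and 183 UMIs in WT, or 35.7 and 32.6 CPM in the flt1 mutants against 16.5 and 15.7 CPM in WT. Its log2 fold was 1.09 (SE 0.12, adjusted p = 0.00955), a 2.12-fold difference. psme2, which forms the activator ring with it, did not pass, at 19.7 and 23.1 CPM in the flt1 mutants and 21.8 and 19.4 CPM in WT (log2 fold 0.06, SE 0.14, adjusted p = 0.862).

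psmb12 had 25 and 19 UMIs in periderm-like cells of the flt1 mutants, and 0 and 0 UMIs in WT. Set against 3 counts over the WT libraries together, this is at least 14.3-fold higher, and edgeR's adjusted p was 0.0168. As psmb12 passed the count filter through the flt1 mutant libraries alone, this p is no independent support. Cells of no named class held a further 16 and 5 UMIs of psmb12 in the flt1 mutants, against 1 and 1 in WT. In periderm-like cells psmb9a had 3 and 4 UMIs in the flt1 mutants and 0 and 0 in WT, too few to test. The other psm gene of the immune type that was tested, psmb10, overlapped between genotypes, at 4.09 and 8.74 CPM in the flt1 mutants and 7.02 and 4.03 CPM in WT.

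The other 19 called genes had log2 folds of 0.46 to 0.61, which is 1.37- to 1.53-fold, with adjusted p from 0.0176 to 0.0497. The lower edge of this range depends on the call threshold. Uncalled genes lay just below it, such as psmd3 at 0.43, and within it, such as psmd10 at 0.58. They were 3 alpha ring genes (psma1, psma3 and psma4), 6 of 7 constitutive beta genes (psmb1, psmb2, psmb3, psmb4, psmb6 and psmb7), 6 of 7 cap ATPases (psmc1b, psmc2, psmc3, psmc4, psmc5 and psmc6) and 4 of 13 non-ATPase cap genes (psmd4b, psmd8, psmd13 and psmd14). The genes left uncalled in the beta ring and the ATPase ring were psmb5, at 0.38 (SE 0.09, adjusted p = 0.0656), and psmc1a, at 0.44 (SE 0.12, adjusted p = 0.0887).

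psma4, of the alpha ring, had 195 and 185 CPM in periderm-like cells of the flt1 mutants, against 127 and 122 CPM in WT. Its log2 fold was 0.61 (SE 0.09, adjusted p = 0.0176). psma3 had 235 and 217 CPM in the flt1 mutants, against 166 and 159 CPM in WT (log2 fold 0.48, SE 0.09). In the alpha ring psma6l was alone below 0, at 5.32 and 7.25 CPM in the flt1 mutants and 5.72 and 6.95 CPM in WT.

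The 2 members with most UMIs in the trunk belong to the beta ring. psmb7, which carries a cutting site, had 376 and 321 CPM in the flt1 mutants and 254 and 245 CPM in WT (log2 fold 0.48, SE 0.10, adjusted p = 0.0474). psmb1 had 355 and 337 CPM in the flt1 mutants and 238 and 232 CPM in WT (log2 fold 0.56, SE 0.09, adjusted p = 0.0191). For both genes both flt1 mutant libraries lay above both WT libraries, and the flt1 mutant libraries were further from each other for psmb7.

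In the cap, psmc6 had 134 and 131 CPM in the flt1 mutants, against 89.1 and 87.6 CPM in WT (log2 fold 0.58, SE 0.09, adjusted p = 0.0188). psmd14 had 112 and 95.9 CPM in the flt1 mutants, against 72.6 and 71.0 CPM in WT (log2 fold 0.53, SE 0.11, adjusted p = 0.041). The lowest non-ATPase genes were psmd2 (0.10, SE 0.30) and psmd6 (0.14, SE 0.09). PSMA2, the near-copy of psma2 outside the symbol rule, was called too, at 146 and 140 CPM in the flt1 mutants and 98.3 and 110 CPM in WT (log2 fold 0.46, SE 0.10, adjusted p = 0.0474), while psma2 itself stood at 0.29 (SE 0.10, adjusted p = 0.164).

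**Figure D3:**
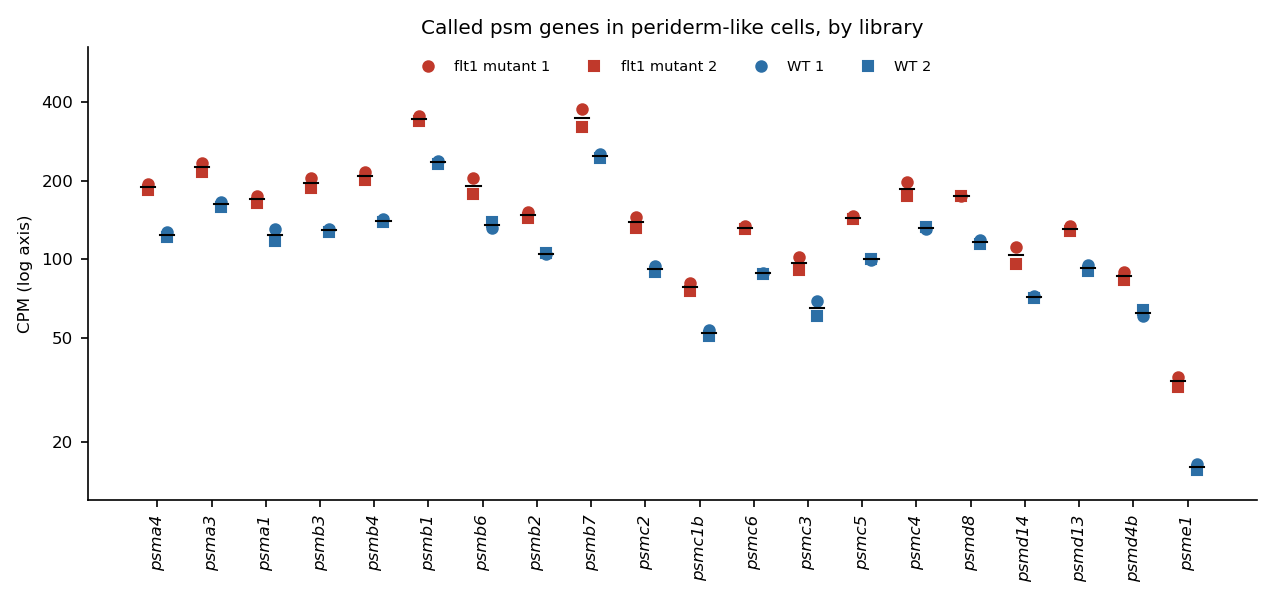
CPM on a log axis (y axis) of the 20 called psm genes with reads in both genotypes (x axis, ordered by role) in periderm-like cells; red points, left in each pair, are the flt1 mutant libraries and blue points the WT libraries, with a black bar at the mean of 2. These genes were called from the same libraries, so that both flt1 mutant points lie above both WT points is no further support. For psme1 the points are 35.7 and 32.6 CPM in the flt1 mutants against 16.5 and 15.7 CPM in WT.

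The assembly chaperones, which help rings and cap form and are not part of the finished particle, had no call among the 6 tested, and their median was -0.05. psmd10 had 16.1 and 18.9 CPM in the flt1 mutants, against 10.9 and 12.4 CPM in WT (log2 fold 0.58, SE 0.15, adjusted p = 0.0804). psmg1 had the opposite sign, at 10.7 and 10.0 CPM in the flt1 mutants and 14.8 and 12.5 CPM in WT (log2 fold -0.39, SE 0.15, adjusted p = 0.193). The inhibitor psmf1 stood at 0.55 (SE 0.22, adjusted p = 0.202).

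The number of periderm-like calls rested on having both flt1 mutant libraries and on the model. With all 4 libraries and the replicate number as a block, 16 psm genes were called, beside 625 of 10457 genes. With the replicate numbers crossed, 1 was called, beside 210 of 10457 genes. Without flt1 mutant replicate 1 there were 0 (0.413% of all genes called) and without flt1 mutant replicate 2 there was 1, psme1 (1.23% of all genes), while the log2 folds of the 19 lay between 0.38 and 0.59 and between 0.55 and 0.72 in those fits. Without WT replicate 1 there were 24 (10.8% of all genes) and without WT replicate 2 there were 21 (9.85% of all genes). Under scaling by library totals 13 were called (7.49% of all genes), the median over all genes moved by -0.11 to -0.14 in these cells, and the member median was 0.30.

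These cells took their name from periderm markers, so the level of those markers does not check it. The 10 periderm markers, among them krt4, krt5 and cyt1, took 310900 and 306300 UPM in the flt1 mutant cells, against 259700 and 269000 UPM in the WT cells, and so were themselves higher in both flt1 mutant libraries. Of the 28 other marker lists, 4 were higher and 10 lower in both flt1 mutant libraries, and the macrophage list stood at 1.33 and 0.946 UPM in the flt1 mutants and 0.274 and 0.526 UPM in WT. The periderm-like cells numbered 481 and 403 in the flt1 mutant libraries and 310 and 622 in the WT libraries, with median depths of 22494 and 24066 UMIs in the flt1 mutants against 23252.5 and 17829.5 UMIs in WT. Their median mitochondrial shares were 1.13% and 0.989% in the flt1 mutants against 0.892% and 0.832% in WT. The part of these differences in the psm result was not tested.

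Whether the difference between genotypes was larger in periderm-like cells than in all other retained cells was asked in 1 model with library as a block, added after the class results had been seen. No member passed in edgeR (0 of 52 psm genes with UMIs on both sides, smallest adjusted p = 0.283), where 0.195% of 16447 genes did. At an unadjusted p under 0.05, 10 psm genes had a higher effect in periderm-like cells and 0 a lower one, beside 2.95% of all genes higher. Among the 10 was psmb12, which had 0 UMIs in periderm-like cells of WT, so its p is no independent support. The median difference of effects was 0.30 for the psm genes and -0.07 over all genes. The rise in periderm-like cells is thus not shown to differ from that elsewhere.

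In basal epidermis-like cells, where nfe2l1a was highest, edgeR and DESeq2 called 0 of 44 psm genes. edgeR called 0.798% of 7765 genes there. This class was smaller, with 2338998 and 1543909 UMIs in the flt1 mutants and 1887442 and 3972514 UMIs in WT. Periderm-like cells held 11282433 and 9509866 UMIs in the flt1 mutants and 7304673 and 11402020 UMIs in WT. The part of this difference in the count of calls was not tested. At an unadjusted p under 0.05, 9 psm genes were higher and 1 lower, and 7.73% of all genes were higher. The median log2 fold was 0.22, beside -0.02 over all genes. psmb7 had 205 and 223 CPM in the flt1 mutants, against 161 and 154 CPM in WT (log2 fold 0.44, SE 0.13, adjusted p = 0.176). psmc3 had 52.7 and 54.2 CPM in the flt1 mutants, against 34.1 and 38.4 CPM in WT (log2 fold 0.55, SE 0.16, adjusted p = 0.177). Both genes were among the 9 higher at an unadjusted p under 0.05, so that their libraries lay apart is no further support. Neither passed over all genes.

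In erythroid-like cells 1 of 46 psm genes was called, a smaller share than of all genes. psmc4, a cap ATPase, had 19.6 and 21.8 CPM in the flt1 mutants, against 10.3 and 12.1 CPM in WT (log2 fold 0.88, SE 0.17, adjusted p = 0.0305, or 1.84-fold), while nfe2l1a had 0 UMIs in each of the 4 libraries. It was the only call among 46 psm genes tested, in cells where 4.5% of 6002 genes were called. At an unadjusted p under 0.05, 15 psm genes were higher and 0 lower, and 8.68% of all genes were higher. The median log2 fold was 0.27, beside 0.00 over all genes.

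Next by adjusted p in these erythroid-like cells came psma6b, at 32.5 and 35.04 CPM in the flt1 mutants and 20.5 and 23.7 CPM in WT (log2 fold 0.61, SE 0.15, adjusted p = 0.0592). Then came psmc5, at 22.3 and 20.8 CPM in the flt1 mutants and 13.5 and 14.6 CPM in WT (log2 fold 0.62, SE 0.16, adjusted p = 0.0685). psmb5 followed, at 24.9 and 29.95 CPM in the flt1 mutants and 14.5 and 18.8 CPM in WT (log2 fold 0.72, SE 0.18, adjusted p = 0.0713). nfe2l1b had 20 and 18 UMIs in the flt1 mutants and 31 and 25 UMIs in WT (log2 fold -0.47, SE 0.31, adjusted p = 0.476). DESeq2 and the fit without flt1 mutant replicate 2 called no psm gene in these cells, whereas the fits without WT replicate 1 and without WT replicate 2 called 9 and 8, where 14.0% and 12.7% of all genes were called. In the same cells 6 of 15 tested heat shock and immediate early genes fell, beside 4.5% of all genes called in either direction. Of these hsp70.1 fell furthest, at 65.2 and 74.6 CPM in the flt1 mutants against 499.7 and 428 CPM in WT (log2 fold -2.73, SE 0.15). The part of these genes in the psm values was not tested.

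Hepatocyte-like cells held the remaining call, and it was lower. psma1 had 3 and 3 UMIs in the flt1 mutants, against 13 and 24 UMIs in WT (log2 fold -2.17, SE 0.52, adjusted p = 0.0435). As psma1 passed the count filter through the WT libraries alone, this p is no independent support. These were shallow cells, with median depths of 810 and 744 UMIs in the flt1 mutants and 1017.5 and 670.5 UMIs in WT, where 7 psm genes passed the filter and 10.2% of 687 genes were called. DESeq2 did not call psma1.

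In the other 14 tested classes edgeR called no psm gene, in 577 tests of a gene in a class, and DESeq2 called none either. At an unadjusted p under 0.05, 27 of these tests were higher and 11 lower in the flt1 mutants, smaller shares than over all genes of these classes, where 5.66% were higher and 5.61% lower. The share of all genes called was 0.0% in xanthophore-like, neuron-like and pronephros-like cells, 0.013% in ependymal radial glia-like cells, 0.0215% in dividing cells, 0.0856% in endothelial-like cells, 0.173% in fin fold mesenchyme-like cells and 0.238% in macrophage-like cells. It was 0.266% in chondrocyte or sclerotome-like cells, 0.446% in muscle progenitor-like cells, 0.67% in smooth muscle-like cells, 1.07% in fast muscle-like cells and 1.16% in melanophore-like cells, beside the 0.798% of basal epidermis-like cells above. Member medians in these classes ran from -0.09 in macrophage-like cells to 0.26 in xanthophore-like cells. Macrophage-like cells were shallower in the flt1 mutants, at median depths of 4828.5 and 6933.5 UMIs in the flt1 mutants against 18384 and 13249 in WT.

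Fast muscle-like cells, with nfe2l1a UMIs in both flt1 mutant libraries and in neither WT library, had a psm median of 0.05 over 46 genes. Smooth muscle-like cells had 8 of 47 psm genes higher and 2 lower at an unadjusted p under 0.05, beside 6.69% of all genes higher and 6.68% lower, led by psma3 (log2 fold 0.35, SE 0.10, adjusted p = 0.185). Endothelial-like cells, which normally express flt1, had 2 nfe2l1a UMIs in all and a psm median of 0.13 over 39 genes, from 34 and 53 cells in the flt1 mutant libraries and 20 and 55 in the WT libraries.

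**Figure D4:**
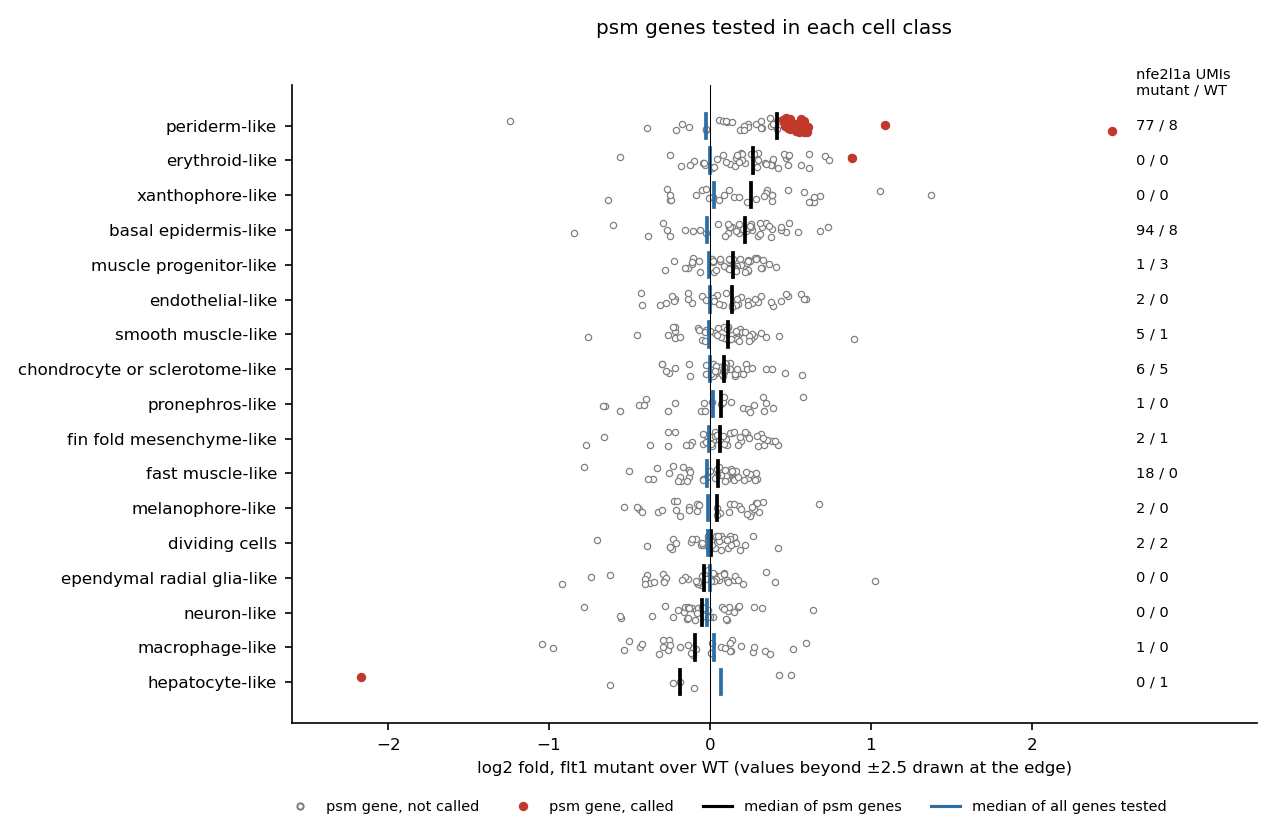
Log2 fold of flt1 mutant over WT (x axis) of each psm gene tested in each of 17 classes (y axis, ordered by the psm median), with called genes in red, the median of psm genes as a black bar and that of all genes tested as a blue bar; at the right, summed nfe2l1a UMIs in flt1 mutant and WT libraries. The psm median is 0.42 in periderm-like cells with 77 flt1 mutant and 8 WT nfe2l1a UMIs, 0.27 in erythroid-like cells with 0 in both genotypes, and 0.22 in basal epidermis-like cells with 94 flt1 mutant and 8 WT UMIs; 1 value beyond the axis, psmb12, is drawn at the edge.

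Since nfe2l1a passed the filter in 2 classes, its log2 fold could not be set against the psm medians. Its difference in UPM, used in place of it after the values had been seen, had a Pearson r of 0.37 and a Spearman rho of 0.20 with the psm median over 17 classes that share the same 4 libraries. Without the epidermal classes, r was 0.32 and rho 0.01 over 15 classes. Some of these differences rest on 1 UMI in a shallow class. Such a UMI stands for 13.1 UPM in WT replicate 2 of hepatocyte-like cells and 11.2 UPM in flt1 mutant replicate 2 of pronephros-like cells.

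The level of the proteasome genes differed more between classes than between genotypes. Summed over the 55 subunits, activators and assembly factors, dividing cells had 8265 and 8405 UPM in the flt1 mutants and 8131 and 7937 UPM in WT, with means over the 4 libraries of 7905 UPM in ependymal radial glia-like cells and 7711 UPM in neuron-like cells. Neighbours at this upper end overlapped between libraries. Erythroid-like cells were lowest, at 859 and 961 UPM in the flt1 mutants and 713 and 764 UPM in WT, with fast muscle-like cells next, at 1329 and 1334 UPM in the flt1 mutants and 1288 and 1203 UPM in WT.

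In periderm-like cells the sum was 4923 and 4823 UPM in the flt1 mutants, against 3999 and 3729 UPM in WT. In basal epidermis-like cells it was 3242 and 3513 UPM in the flt1 mutants, against 2702 and 2704 UPM in WT. Both flt1 mutant libraries lay above both WT libraries in 10 of 17 classes, below them in 1 (hepatocyte-like cells) and overlapped with them in 6. The classes share the same 4 libraries, so these are not independent results. How often sums of other genes lay apart was not counted, so these counts are a description. In the whole trunk the sum was 3901 and 4273 UPM in the flt1 mutants and 3862 and 3384 UPM in WT.

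**Figure D5:**
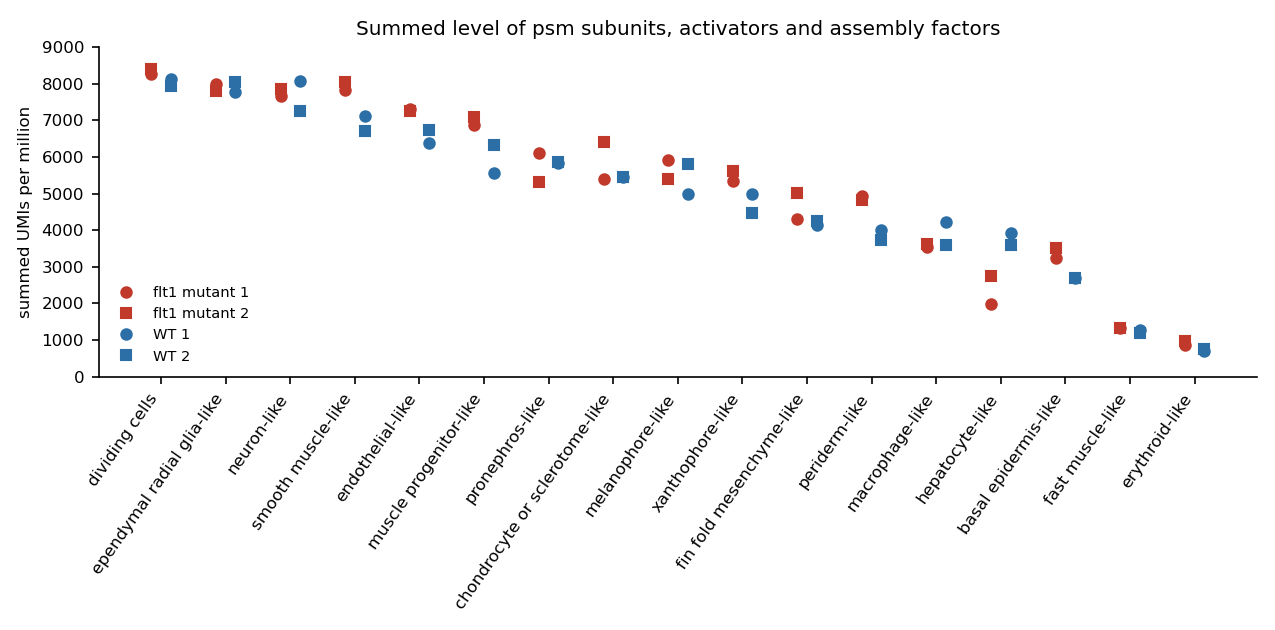
Summed UPM (y axis, from 0) of the 55 subunits, activators and assembly factors in each class (x axis, ordered by mean); red points, left in each pair, are flt1 mutant libraries and blue points WT libraries, circles replicate 1 and squares replicate 2. Levels run from about 8184 UPM in dividing cells to 824 UPM in erythroid-like cells, and the genotypes are apart in periderm-like cells (4923 and 4823 UPM in the flt1 mutants against 3999 and 3729 UPM in WT).

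The 3 most abundant members by UMIs over the trunk were psmb7, psmb1 and psma3. psmb7 was highest in dividing cells, at 526 ± 17.7 UPM (SD, n = 4 libraries), with ependymal radial glia-like cells next at 496 ± 11.8, and lowest in erythroid-like cells at 58.1. psmb1 was highest in neuron-like cells at 452 ± 39.8, overlapping with dividing cells at 436 ± 40.2. psma3 was highest in neuron-like cells at 398 ± 16.5, with dividing cells at 390 ± 17.6. Their order at the top did not differ beyond these spreads for psmb1 and psma3.

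A few members were far from even across classes, with a highest class mean over 8 times the median of class means. psme1 and psme2 were highest in macrophage-like cells, at 31.2 ± 11.8 and 46.0 ± 20.9 UPM, with periderm-like cells next at 24.7 ± 9.26 and 21.0 ± 2.29, against class medians of 1.15 and 0.984. In the flt1 mutants alone the order was the other way for psme1, at 33.2 and 32.2 UPM in periderm-like cells and 19.3 and 25.0 UPM (4 and 5 UMIs) in macrophage-like cells. psma6l, an alpha-type paralogue, was also highest in macrophage-like cells, at 11.9 ± 7.16, with periderm-like cells next at 6.31 ± 1.04. The macrophage-like level rests on 3 and 4 UMIs in the flt1 mutants and 1 and 3 in WT. In WT replicate 1 the order was the other way, at 3.11 UPM against 6.02 in periderm-like cells. psmb9a was highest in pronephros-like cells at 2.79 ± 5.59, which rests on 1 library. nfe2l1a, highest in basal epidermis-like cells at 12.7 ± 13.3 UPM over both genotypes against a class median of 0.74, was also beyond 8 times. The other members were within 8 times the median or had a median of 0.

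The wider pathway was given by 5 lists. Of 16 genes in the files that handle or process Nfe2l1 in mammals (extraction, deglycosylation, cleavage and turnover), 14 were tested in periderm-like cells, 1 rose and 0 fell. That count is near the share of all genes in these cells, of which 6.04% were called and 3.15% called higher. The gene that rose was vcp, the extracting ATPase, at 189 and 183 CPM in the flt1 mutants against 142 and 134 CPM in WT (log2 fold 0.43, SE 0.09, adjusted p = 0.0442). ngly1, the deglycosylating enzyme, was at 11.1 and 11.1 CPM in the flt1 mutants and 16.6 and 14.6 CPM in WT (log2 fold -0.48, SE 0.14, adjusted p = 0.106). The list median was -0.09.

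In periderm-like cells 11 cap n collar and small Maf factors passed the filter, nfe2l1a among them. With nfe2l1a left out, 2 rose and 0 fell, where 6.04% of all genes were called and 3.15% called higher. nfe2l2b, a paralogue of the oxidative stress factor Nrf2, had 112 and 93.3 CPM in the flt1 mutants, against 60.0 and 64.5 CPM in WT (log2 fold 0.72, SE 0.12, adjusted p = 0.0228). nfe2l3, the closest relative of nfe2l1 in mammals, had 77.8 and 84.2 CPM in the flt1 mutants, against 59.0 and 46.4 CPM in WT (log2 fold 0.62, SE 0.14, adjusted p = 0.0476). With nfe2l1a left untested, no factor of this list was called by edgeR in the whole trunk or in basal epidermis-like cells.

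Of 14 proteasome partners outside the symbol rule, 2 rose and 1 fell in periderm-like cells, where 6.04% of all genes were called. zfand2a, which is linked to proteasomes under arsenite stress in mammals, stood at 0.51 (SE 0.11, adjusted p = 0.0461), and txnl1, a thioredoxin that binds the cap, at 0.61 (SE 0.11, adjusted p = 0.0333). uchl5, a deubiquitinase of the cap, had 5.61 and 4.69 CPM in the flt1 mutants, against 16.8 and 12.8 CPM in WT (log2 fold -1.50, SE 0.20, adjusted p = 0.0133), and it fell in fast muscle-like and smooth muscle-like cells too. pomp, the maturation factor of the core, was at 0.35 (SE 0.11, adjusted p = 0.125), and the receptor adrm1 at 0.38 (SE 0.09, adjusted p = 0.0656).

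Of 11 ubiquitin and shuttle genes tested in periderm-like cells none was called. At an unadjusted p under 0.05, 3 were higher and 0 lower, where 10.9% of all genes were higher. In basal epidermis-like cells ubb, a polyubiquitin gene, rose, at 1223 and 1249 CPM in the flt1 mutants against 762 and 816 CPM in WT (log2 fold 0.65, SE 0.10, adjusted p = 0.048). Of 16 heat shock and immediate early genes in periderm-like cells, hsp70l (log2 fold 1.89, SE 0.29, adjusted p = 0.0191) and fosb (0.85, SE 0.11, adjusted p = 0.013) rose and hsp70.1 fell (-0.74, SE 0.14, adjusted p = 0.0311), beside 6.04% of all genes called. These genes respond to handling of cells, and their part in the psm values was not tested.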

How the data were processed

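Trunk cells of 2 flt1 mutant and 2 WT libraries were read with 10x Genomics 3′ chemistry (version 2 in the labels, version 3 in the methods of the study). The deposited values are counts of UMIs per gene and barcode, made with Cell Ranger 6.1.1 per the file headers and mapped by the authors to GRCz11, without normalization. Members and gene lists were chosen with earlier results of these data known.

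Barcodes with over 200 and under 4000 genes and under 5% mitochondrial UMIs were kept. Seurat 5.3.0 clustered log-normalised counts (2000 variable genes, reciprocal PCA with 30 dimensions, 50 components, resolution 0.3), where the study used SCTransform. A cluster took a class name with at least 3 markers among its 50 leading genes, more than any other class, and no other class ahead among the 10 leading genes. Clusters far shallower than their libraries with no marker there stayed unnamed. Class names are thus rebuilt and may differ from those of the study. No doublet caller was run, and whether doublets had been removed is not given in the sources used here.

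UMIs were summed per library over each class, where every library held at least 20 of its cells. edgeR 4.0.16 (TMM scaling, filterByExpr, two-sided quasi-likelihood F test, Benjamini-Hochberg over all genes tested, threshold 0.05) compared the genotypes, with DESeq2 1.42.0 as an alternative, and was tested on simulated data. CPM uses the scaled library size. UPM uses the unscaled total of the class, and intervals and floors (3 counts) cover counting error only. Libraries range from 35781471 to 61822943 retained UMIs.

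Named were the nfe2l1 paralogues, up to 10 psm genes of smallest p in the trunk, the highest and lowest fold of each role, the 3 most abundant members, class calls (up to 5, otherwise 3 of smallest p), members over 8 times their class median, and 5 genes most like nfe2l1a. Members and pathway genes named beyond this rule, including the list of all 21 called in periderm-like cells, were chosen after their values were seen. Alternatives were DESeq2, library totals, no count filter, a replicate block, leaving out each library, over 500 genes per cell, all barcodes and named cells only. A crossed block and the test of periderm-like against other cells were added after seeing the data.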

Additional observations from a re-analysis of the deposited data

Results flagged for a closer look

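The barcodes left out by the cell limits, which enter none of the results above except the alternative over all barcodes, held nfe2l1a at 2.73 UPM in the flt1 mutant libraries pooled, against 0.437 UPM in the WT libraries pooled. By library these were 54 and 49 UMIs in the flt1 mutants, against 6 and 10 UMIs in WT. They drew attention because a signal above that of WT appears in barcodes outside the retained cells. psmb12 had 15 and 12 UMIs there in the flt1 mutants, against 2 and 5 in WT. The summed psm genes did not show the same order, at 3831 and 3814 UPM in the flt1 mutants and 3831 and 3287 UPM in WT, and psme1 overlapped, at 6.51 and 4.59 UPM in the flt1 mutants and 8.20 and 2.03 UPM in WT. These values carry no test.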

How the results depend on the processing

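Whole-trunk psm calls, 0 in the result given above, became 2 with DESeq2, 2 with library totals (psme1 and psmb12 in both) and 1 without a count filter. Of all genes, DESeq2 called 626 of 18036, library totals 510 of 18036 and the fit without a filter 175 of 23511. Summed over classes, the 23 calls became 15 with library totals and 1 to 36 when 1 library was left out. In periderm-like cells the 21 calls became 13 with library totals and 0 to 24 when 1 library was left out (0 without flt1 mutant replicate 1, 1 without flt1 mutant replicate 2). In erythroid-like cells the 1 call became 0 with DESeq2 and 3 without a filter, beside 137 of 6002 and 607 of 17157 genes called. With library totals the psm median was 0.17 in the whole trunk and 0.30 in periderm-like cells. Leaving out 1 library moved these medians between 0.19 and 0.28 and between 0.36 and 0.51, and the nfe2l1a log2 fold in the whole trunk between 2.76 and 3.19.

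Replicate numbers state no shared origin, and the deviations of same-numbered libraries correlated at r = -0.18. With the replicate number as a block, 0 psm genes were called in the whole trunk and 20 over the classes. Periderm-like cells had 16 of these calls and erythroid-like cells 3. Of all genes, 41 of 18036 were called in the trunk, 625 of 10457 in periderm-like cells and 418 of 6002 in erythroid-like cells. With the numbers crossed, chosen after seeing the data, the psm counts were 0, 2, 1 and 1 in the same order. All genes called were then 112, 210 and 322 in the trunk, periderm-like and erythroid-like cells. Sums over the classes, here and above, have no share over all genes beside them.

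Of 738 values of single genes under the alternatives, 624 kept direction and call, 84 lost the call, 14 gained one and 16 changed sign. Those that changed sign had log2 folds between -0.13 and 0.24 in the fit given above. With library totals psmb10 in the whole trunk was -0.0216 and psme2 in periderm-like cells -0.0547, and with DESeq2 psma6l in periderm-like cells was 0.0003. When 1 library was left out, the whole-trunk log2 folds ran from -0.0109 to 0.13 for psma6a, -0.31 to 0.45 for psmb10, -0.075 to 0.0082 for psmd11b and -0.49 to 0.28 for psme4a. In periderm-like cells they ran from -0.21 to 0.20 for psma6l, -0.36 to 0.71 for psmb10, -0.0264 to 0.18 for psme2 and -0.24 to 0.027 for psme3ip1. The cause was not tested. At 0 to 9 UMIs of nfe2l1a a library, depth limits its value in each tested class outside the epidermis.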
